A study of Rattus norvegicus and Bos taurus with 12 samples.

Results

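The genes described here encode the enzymes that burn fatty acids, ketone bodies and pyruvate in mitochondria, together with 3 regulators of oxidative metabolism. The set was given as 45 gene symbols, and its members were found by matching those symbols in any letter case. In the table of adult rat ventricular myocytes (ARVM) 44 of the 45 were among 7052 listed genes, and Ppara was the 1 symbol not listed. In the table of bovine cardiac fibroblasts (Cfib) 6 of the 45 were among 2115 listed genes. Nearly all members were lower in ARVM kept in medium conditioned by fibroblasts of hypertensive calves than in freshly isolated ARVM. Of the 44 listed members 43 fell and 1, Cpt1a, rose, and the median log2 fold change was −2.01 over the members beside +0.37 over all listed genes. The 6 members listed for Cfib were all lower in fibroblasts of the hypertensive calves, by 1.13-fold for HADHA to 1.48-fold for ACSL1 and 3.83-fold for BDH1. BDH1 passed the authors' expression filter only through the control group.

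A long-chain fatty acid is first joined to coenzyme A, is passed across the mitochondrial inner membrane as its carnitine ester, and is then shortened by repeated rounds of dehydrogenation, hydration, a second dehydrogenation and thiolysis. The acetyl-CoA made in this way, and that made from pyruvate and ketone bodies, enters the tricarboxylic acid (TCA) cycle, which feeds electrons to the respiratory chain. The adult heart is known to draw most of its energy from fatty acids, whereas fetal and neonatal heart relies more on glucose and lactate.

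The study asked how the right ventricular fibroblasts of calves with pulmonary hypertension (PH) differ from those of control (CO) calves, and how medium conditioned by the PH fibroblasts (PH-CM) acts on adult myocytes. RNA sequencing of 12 libraries was analysed, 3 in each of 4 groups. The calves were made hypertensive by hypobaric hypoxia. The ARVM came from Sprague Dawley rats, and the PH-CM group was kept in that medium for 7 days. The control group was untreated and, according to the study's methods, freshly isolated. The sample labels instead speak of serum of cows living at low or high altitude, so the wording of labels and methods differs for the same libraries. No ARVM cultured for the same time without PH-CM were analysed here, so the medium and the time in culture cannot be told apart. The fibroblasts came from 3 animals a group. For ARVM nothing says whether the libraries came from separate isolations, and p-values then measure only the spread between these samples, which may be technical.

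Both tables hold only genes that the authors had selected for a difference between the groups. With limma, 97.6% of the 7052 genes listed for ARVM were called at an adjusted p under 0.05 (Benjamini-Hochberg over the table), 43.7% as lower in PH-CM and 53.9% as higher, so that being called is no distinction for a member and only its direction and size are described. The groups also do not overlap in 100% of the listed ARVM genes, and in 100% of the listed Cfib genes. The values for ARVM are normalized counts, that is reads divided by 1 size factor per library, and 12122463 to 18842171 reads per library fell on the listed genes. They are not divided by gene length, so levels of different genes are not compared with each other.

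Sequences before the start sites of 3 members are shown as examples, namely Mpc2 and Idh3g, which hold the motif named below, and Cpt1a, which rose. They were taken from RefSeq promoters of the rat build GRCr8, whereas the reads had been aligned to RN6, and a promoter was given there for 40 of the 45 symbols, all but Acaa2, Acadl, Cpt1b, Decr1 and Idh3a. Each line holds the 250 bases before the start, read in the direction of the gene, with the motif CCGGAAG, the core of a GGAA-type (ETS family) site, in capitals. Mpc2 (plus strand, chr13:80261006-80261255) and Idh3g (minus strand, chrX:156675483-156675732) rank 5 and 8 among the listed members by size of fall. Cpt1a (plus strand, chr1:209995910-209996159) is the member that rose and holds none of the motifs searched.
Mpc2: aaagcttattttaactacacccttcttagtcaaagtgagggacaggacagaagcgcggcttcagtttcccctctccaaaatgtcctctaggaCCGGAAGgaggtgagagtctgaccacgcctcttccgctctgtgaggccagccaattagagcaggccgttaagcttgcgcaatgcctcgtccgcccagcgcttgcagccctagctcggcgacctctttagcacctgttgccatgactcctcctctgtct
Idh3g: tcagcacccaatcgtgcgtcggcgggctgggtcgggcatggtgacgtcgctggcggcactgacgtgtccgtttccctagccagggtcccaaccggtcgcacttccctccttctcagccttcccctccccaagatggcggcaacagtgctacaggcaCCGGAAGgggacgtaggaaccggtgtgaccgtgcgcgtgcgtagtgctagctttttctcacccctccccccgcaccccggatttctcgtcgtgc
Cpt1a: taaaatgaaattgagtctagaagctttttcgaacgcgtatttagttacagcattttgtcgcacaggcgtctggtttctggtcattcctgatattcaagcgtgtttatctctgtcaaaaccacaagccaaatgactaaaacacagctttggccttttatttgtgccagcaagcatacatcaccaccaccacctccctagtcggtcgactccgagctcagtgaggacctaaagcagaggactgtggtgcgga

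Searched on both strands of these 250 bases, CCGGAAG was found in 6 of the 40 members (15.0%), namely Cpt2, Dlst, Idh3b, Idh3g, Mdh2 and Mpc2. In that order these changed by −1.33, −1.59, −2.23, −2.50, −2.36 and −2.71 on the log2 scale. Hadh, Oxct1, Idh2 and Echs1, which fell most of all members, held none of the motifs searched. CCGGAAG was found in 13.6% of the promoters of genes listed for ARVM and in 7.27% of all 33469 promoters, so the share among members lay near that of the listed genes. The site of NRF1, a factor of respiratory chain genes, searched as GCGCATGCG, was found in 1 of the 40, Ppara, and in 2.68% of the promoters of listed genes. The binding sequence of estrogen-related receptors, searched as TCAAGGTCA, was found in 0 of the 40 members and in 0.388% of all promoters. The direct repeat bound by PPAR factors, searched as AGGTCA, any base and AGGTCA again, was found in 0 members and in 0.0508% of all promoters. Among promoters of listed genes the shares were 0.234% for the estrogen-related receptor sequence and 0.0360% for the PPAR repeat. At shares so low, 0 among 40 promoters says nothing of whether these factors bind the members. No promoter of a member held more than 1 of these motifs.

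Taken as a sum, the 44 listed members gave 602098, 572329 and 574155 normalized counts in the freshly isolated libraries and 142807, 138159 and 128279 in the PH-CM libraries. The sum was 4.27-fold lower in PH-CM, and the groups did not overlap (582861 ± 16685 against 136415 ± 7419, SD, n = 3 each, 2-sided exact permutation test p = 0.1, the smallest value that 3 against 3 can give). All members but Cpt1a, which holds few of the counts, were lower in every PH-CM library. The sum therefore had to separate the groups, and its p-value adds no support. As a share of all listed values the members made up 3.09% ± 0.0624 of freshly isolated and 0.969% ± 0.0597 of PH-CM libraries. By role, the sum was 7.51-fold lower for enzymes of ketone body use, 5.45-fold for acyl-CoA dehydrogenases, 4.55-fold for the TCA cycle with the malate dehydrogenases and 4.27-fold for the later steps of beta-oxidation. It was 3.84-fold lower for the electron transfer flavoproteins, 3.69-fold for pyruvate entry, 2.45-fold for the auxiliary enzymes of unsaturated fatty acids, 2.23-fold for activation and the carnitine shuttle and 1.81-fold for the 2 regulators. These sums weigh the highly counted genes most.

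Of the 44 members 43 were called lower, 41 of them with a log2 fold change of −1 or below and 22 with −2 or below. Among all listed genes 43.7% were called lower, 16% with −1 or below and 5.74% with −2 or below. Of the listed members these counts are 97.7%, 93.2% and 50%. With edgeR and DESeq2 on the recovered reads the same 43 members were called lower, where edgeR called 43.7% and DESeq2 43% of all listed genes lower. The 43 genes that fell stood at 9.11% to 57.0% of their freshly isolated mean, with a median of 24.4%. Their order by fold change is coarse. Of the 43 gaps between neighbours in the order of all 44, 33 were smaller than the joint standard error of the pair.

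**Figure D1:**
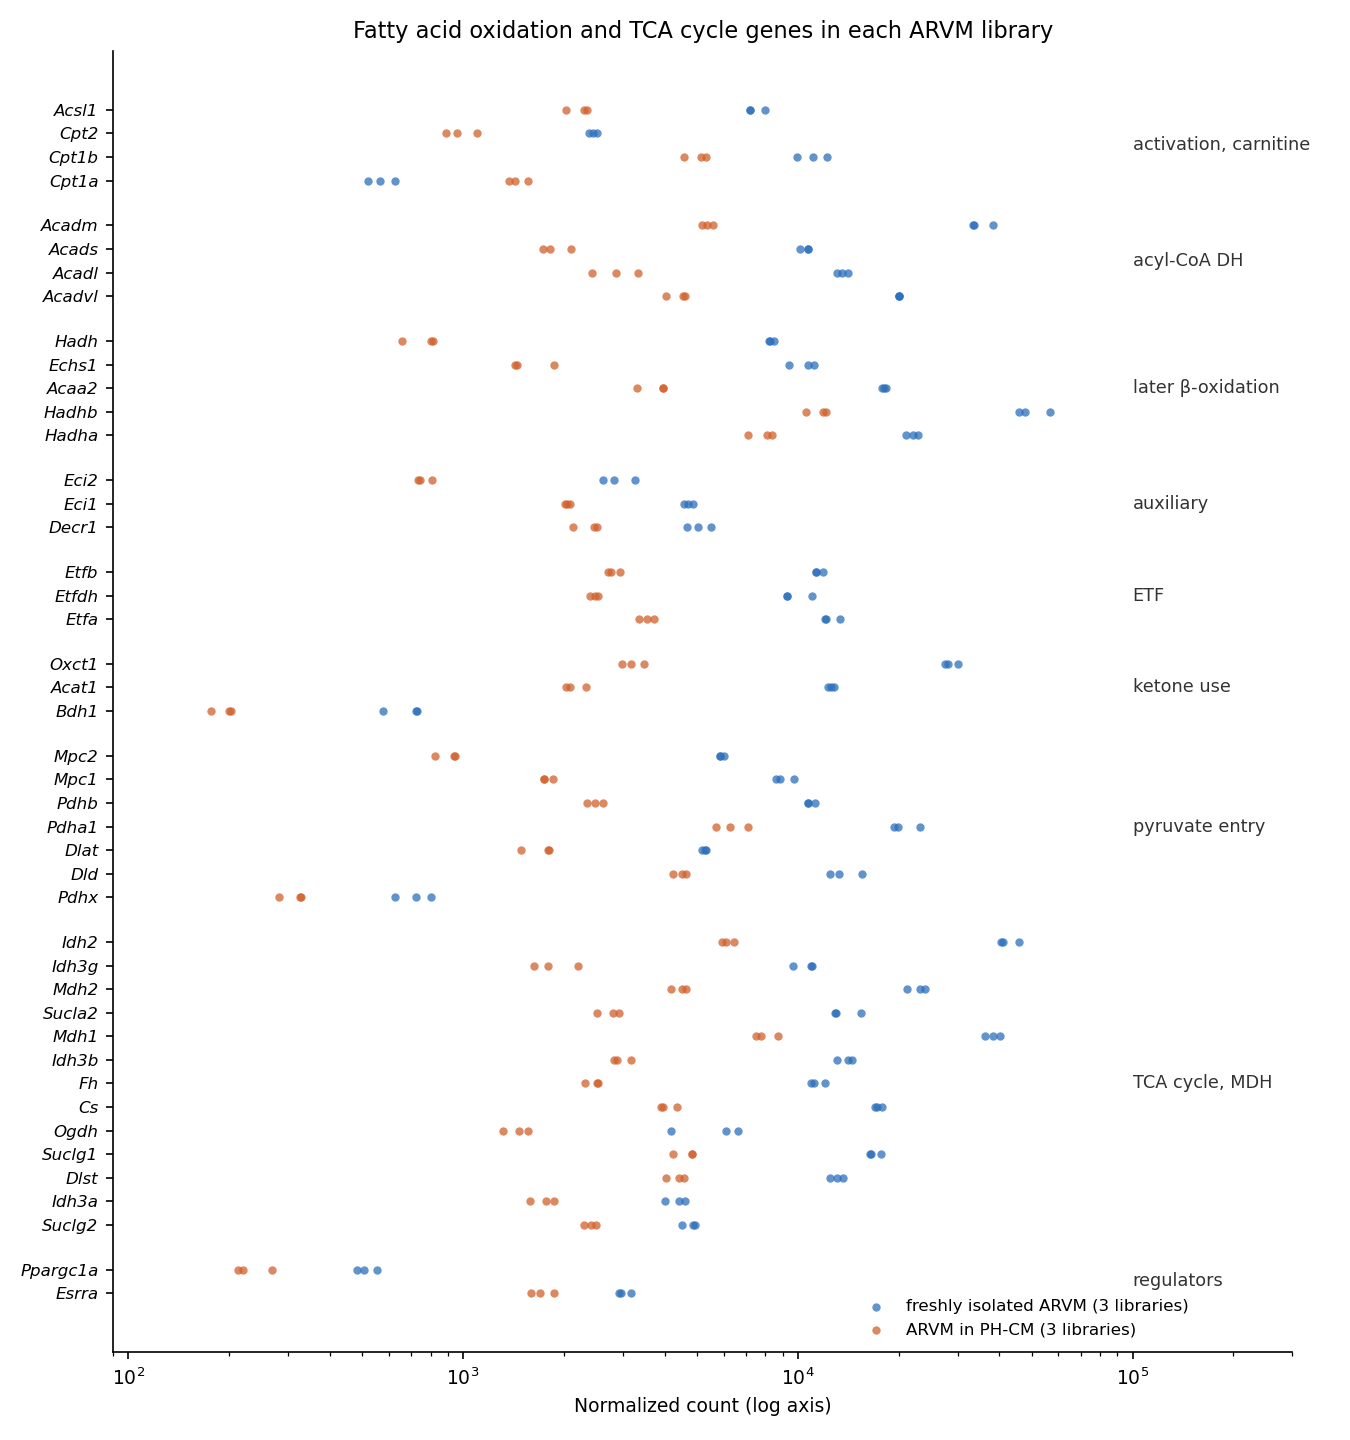
Normalized counts (log axis) of the 44 listed members in the 6 ARVM libraries, each point 1 library, blue for freshly isolated and orange for PH-CM, grouped by role. For 43 genes every orange point lies to the left of every blue point, and for Cpt1a every orange point lies to the right.

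Fatty acid activation and the carnitine shuttle held the 1 member that rose. Cpt1a, the liver isoform of carnitine palmitoyltransferase 1, which the fetal and neonatal heart also uses, had 565, 522 and 626 normalized counts in freshly isolated ARVM and 1559, 1368 and 1432 in PH-CM. Every PH-CM library was above every freshly isolated one, by a log2 fold change of +1.35 (SE 0.09, n = 3 each, limma adjusted p = 6.27e-06). Cpt1b, the muscle isoform of the same enzyme, had 9924, 11074 and 12234 and then 5140.1, 5325 and 4576 normalized counts, a log2 fold change of −1.14 (SE 0.09), with all PH-CM libraries the lower ones. Acsl1, the main long-chain acyl-CoA synthetase of heart, fell from 7171, 7212 and 7971 to 2350.4, 2291 and 2026 normalized counts, or 3.35-fold. Cpt2, which returns the acyl group to coenzyme A inside the mitochondrion, had a log2 fold change of −1.33.

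The isoforms were also compared as their ratio within a library, which does not depend on the size factors. The ratio of Cpt1a to Cpt1b was 0.0569, 0.0471 and 0.0512 in freshly isolated ARVM and 0.303, 0.257 and 0.313 in PH-CM. It was 5.63-fold higher in PH-CM, without overlap (log2 change +2.49, exact permutation p = 0.1, adjusted p = 0.1 over 9 ratios, the smallest value possible). Since Cpt1a was higher and Cpt1b lower in every PH-CM library, this ratio had to separate the groups. Its p-value was thus fixed and adds no support. The ratios are of counts that were not divided by gene length, so only their change is read.

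**Figure D2:**
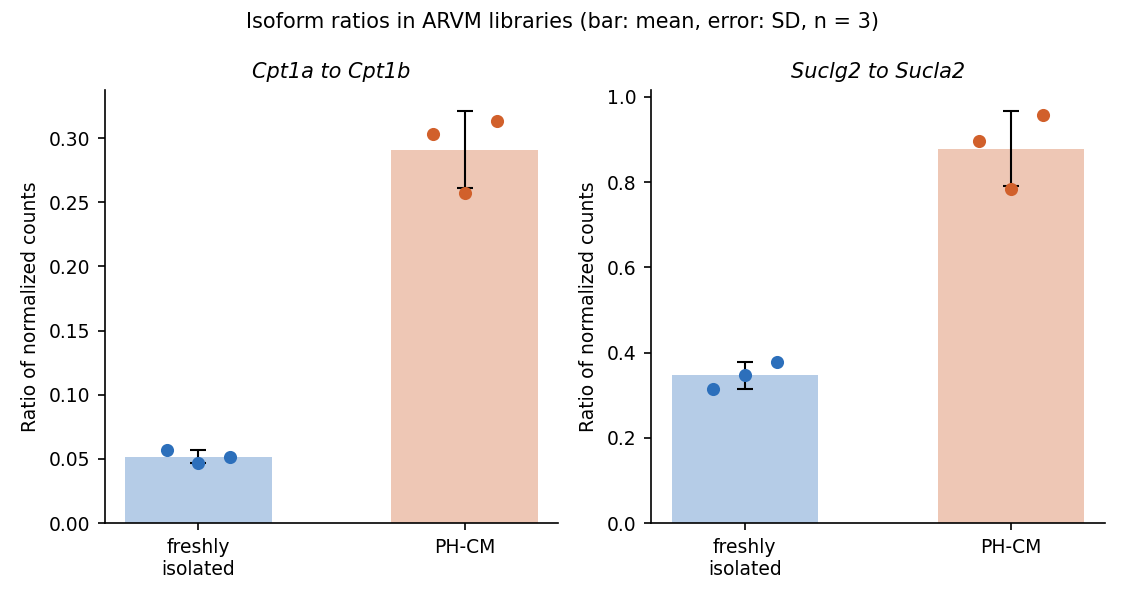
Ratio of normalized counts of Cpt1a to Cpt1b (left) and of Suclg2 to Sucla2 (right) in freshly isolated and PH-CM ARVM. Bars are means, error bars are SD, n = 3, and points are libraries; all PH-CM points lie above all freshly isolated points, at means of 0.291 against 0.0517 and 0.879 against 0.347.

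The acyl-CoA dehydrogenases catalyse the first step of each round for chains of different length, and all 4 fell. Acadm, for medium chains, went from 38260.4, 33492 and 33286 to 5590.1, 5353 and 5161 normalized counts, a log2 fold change of −2.70 (SE 0.07). Acadvl, for very long chains, had the smallest change of the 4, from 20046, 20099.9 and 20084 to 4604, 4536 and 4043, a log2 fold change of −2.19 (SE 0.06). Acads, for short chains, and Acadl, for long chains, lay between them at −2.49 and −2.25. Each was lower in every PH-CM library.

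The later steps held the member with the largest fall. Hadh, the hydroxyacyl-CoA dehydrogenase for medium and short chains, had 8272, 8208 and 8458 normalized counts in freshly isolated ARVM and 811, 804 and 656 in PH-CM. That is 11-fold lower, with a log2 fold change of −3.46 (SE 0.09). Echs1, the short-chain enoyl-CoA hydratase, and Acaa2, a thiolase of the matrix, had log2 fold changes of −2.73 and −2.28. Hadha and Hadhb encode the alpha and beta subunits of 1 complex, the mitochondrial trifunctional protein, and did not fall equally. Hadha went from 22859, 21055 and 22009 to 8372, 8078 and 7111 normalized counts (−1.49, SE 0.08). Hadhb went from 56723, 47722 and 45651 to 11907, 12174 and 10571 (−2.11, SE 0.10). The ratio of Hadha to Hadhb rose without overlap between groups, by 0.62 on the log2 scale (exact permutation p = 0.1, adjusted p = 0.1), a ratio taken after the values were seen.

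The auxiliary enzymes, which handle double bonds, had the smallest summed fall of the enzyme groups after the carnitine shuttle. Eci2, an enoyl-CoA isomerase, went from 3251, 2617 and 2825 to 808, 743 and 734 normalized counts (log2 fold change −1.92, SE 0.09). Its relative Eci1 changed by −1.20 (SE 0.05). Decr1, the dienoyl-CoA reductase, went from 5493, 5047 and 4679 to 2455, 2507 and 2135, a log2 fold change of −1.1 (SE 0.08). All 3 were lower in every PH-CM library.

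The electron transfer flavoprotein accepts electrons from the acyl-CoA dehydrogenases, and its 3 genes fell by similar amounts. Etfb, the beta subunit, went from 11311, 11883 and 11331 to 2936, 2713 and 2768 normalized counts (−2.04, SE 0.05). Etfa, the alpha subunit, went from 13325, 12159.5 and 12073 to 3713, 3549 and 3359 (−1.82, SE 0.06). Etfdh, the oxidoreductase that passes the electrons on to ubiquinone, changed by −1.99 (SE 0.08). Etfb and Etfdh differed by less than their joint standard error.

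Enzymes of ketone body use showed the largest summed fall. Oxct1, the transferase that commits ketone bodies to oxidation, fell 8.87-fold, from 30029, 27521 and 28043 to 3471, 2991 and 3183 normalized counts (log2 fold change −3.15, SE 0.07). Acat1, the mitochondrial acetoacetyl-CoA thiolase, changed by −2.55 (SE 0.07). Bdh1, the hydroxybutyrate dehydrogenase, had 574, 724 and 727 and then 199.6, 176 and 203 normalized counts (−1.80, SE 0.14). In each case the 3 PH-CM libraries were the lower ones.

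Pyruvate entry comprises the mitochondrial pyruvate carrier (Mpc1 and Mpc2) and the pyruvate dehydrogenase complex. Mpc2 fell most, from 6014, 5863 and 5834 to 947, 942 and 826 normalized counts, or 6.52-fold (log2 fold change −2.71, SE 0.07), and Mpc1 had a log2 fold change of −2.34. Within the complex, the E1 subunits Pdhb and Pdha1 changed by −2.13 and −1.71 and the shared E3 enzyme Dld by −1.62. Dlat, the E2 enzyme, went from 5156, 5304 and 5294 to 1794, 1810.1 and 1492 normalized counts (−1.63, SE 0.08). Pdhx, the E3-binding protein, fell least, from 799, 627 and 722 to 327, 328 and 282 (−1.19, SE 0.13). All 7 genes were lower in every PH-CM library, and the larger falls were those of the carrier.

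All 13 genes of the TCA cycle and the malate dehydrogenases fell, at log2 fold changes between −2.78 and −0.99 (median −2.22). Idh2, the NADP-dependent isocitrate dehydrogenase of mitochondria, fell most, from 40514, 41039.5 and 45619.6 to 6455, 6082 and 5935 normalized counts, or 6.88-fold (SE of the log2 fold change 0.07). Cs, citrate synthase, went from 17826, 17036 and 17221 to 4344, 3949 and 3911 (−2.09, SE 0.06). Mdh2 and Mdh1, the mitochondrial and cytosolic malate dehydrogenases, changed by −2.36 and −2.26, and Fh, fumarase, by −2.22. In the oxoglutarate dehydrogenase complex the E1 gene Ogdh changed by −1.93 and the E2 gene Dlst by −1.59. Ogdh had the widest spread of all members in freshly isolated ARVM, with 4169, 6119 and 6605 normalized counts (coefficient of variation 22.9%).

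Succinyl-CoA synthetase pairs 1 alpha subunit, Suclg1, with either of 2 beta subunits, Sucla2 for ATP and Suclg2 for GTP. Suclg2 had the smallest change of the cycle, from 4854, 4496 and 4921 to 2502, 2295 and 2402 normalized counts (−0.99, SE 0.06). Sucla2 went from 15384, 12938 and 13022 to 2795, 2927 and 2509 (−2.33, SE 0.09), and Suclg1 changed by −1.87. The ratio of Suclg2 to Sucla2 was 0.316, 0.347 and 0.378 in freshly isolated ARVM and 0.895, 0.784 and 0.957 in PH-CM. It rose 2.53-fold without overlap between groups (log2 change +1.34, exact permutation p = 0.1, adjusted p = 0.1).

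NAD-dependent isocitrate dehydrogenase showed a like inequality among its subunits. Idh3g and Idh3b, which encode the gamma and beta subunits, changed by −2.50 (SE 0.11) and −2.23 (SE 0.07), and Idh3a, the catalytic alpha subunit, by −1.32 (SE 0.08). The ratio of Idh3a to Idh3b rose by 0.91 and that of Idh3a to Idh3g by 1.18 on the log2 scale. Ratios of 4 other pairs, Pdhx to Dlat, Mpc1 to Mpc2, Pdha1 to Pdhb and Etfa to Etfb, rose by 0.44, 0.37, 0.42 and 0.21. None of these 6 pairs overlapped between the groups, and in each the exact permutation p was 0.1 (adjusted p = 0.1). All were chosen after the values were seen and written with the gene that fell less in the numerator.

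The regulators changed less than most of the enzymes. Ppargc1a, the coactivator PGC-1 alpha, had 506, 483 and 555 normalized counts in freshly isolated ARVM and 268, 220.0 and 212 in PH-CM, a log2 fold change of −1.14 (SE 0.14). Esrra, the estrogen-related receptor alpha that works with it, went from 2918, 3173 and 2972 to 1865, 1598 and 1702 (−0.81, SE 0.07), the smallest fall among the 43. Both were lower in every PH-CM library. Ppara, the fatty acid receptor, was not among the listed genes, which says nothing of its level.

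**Figure D3:**
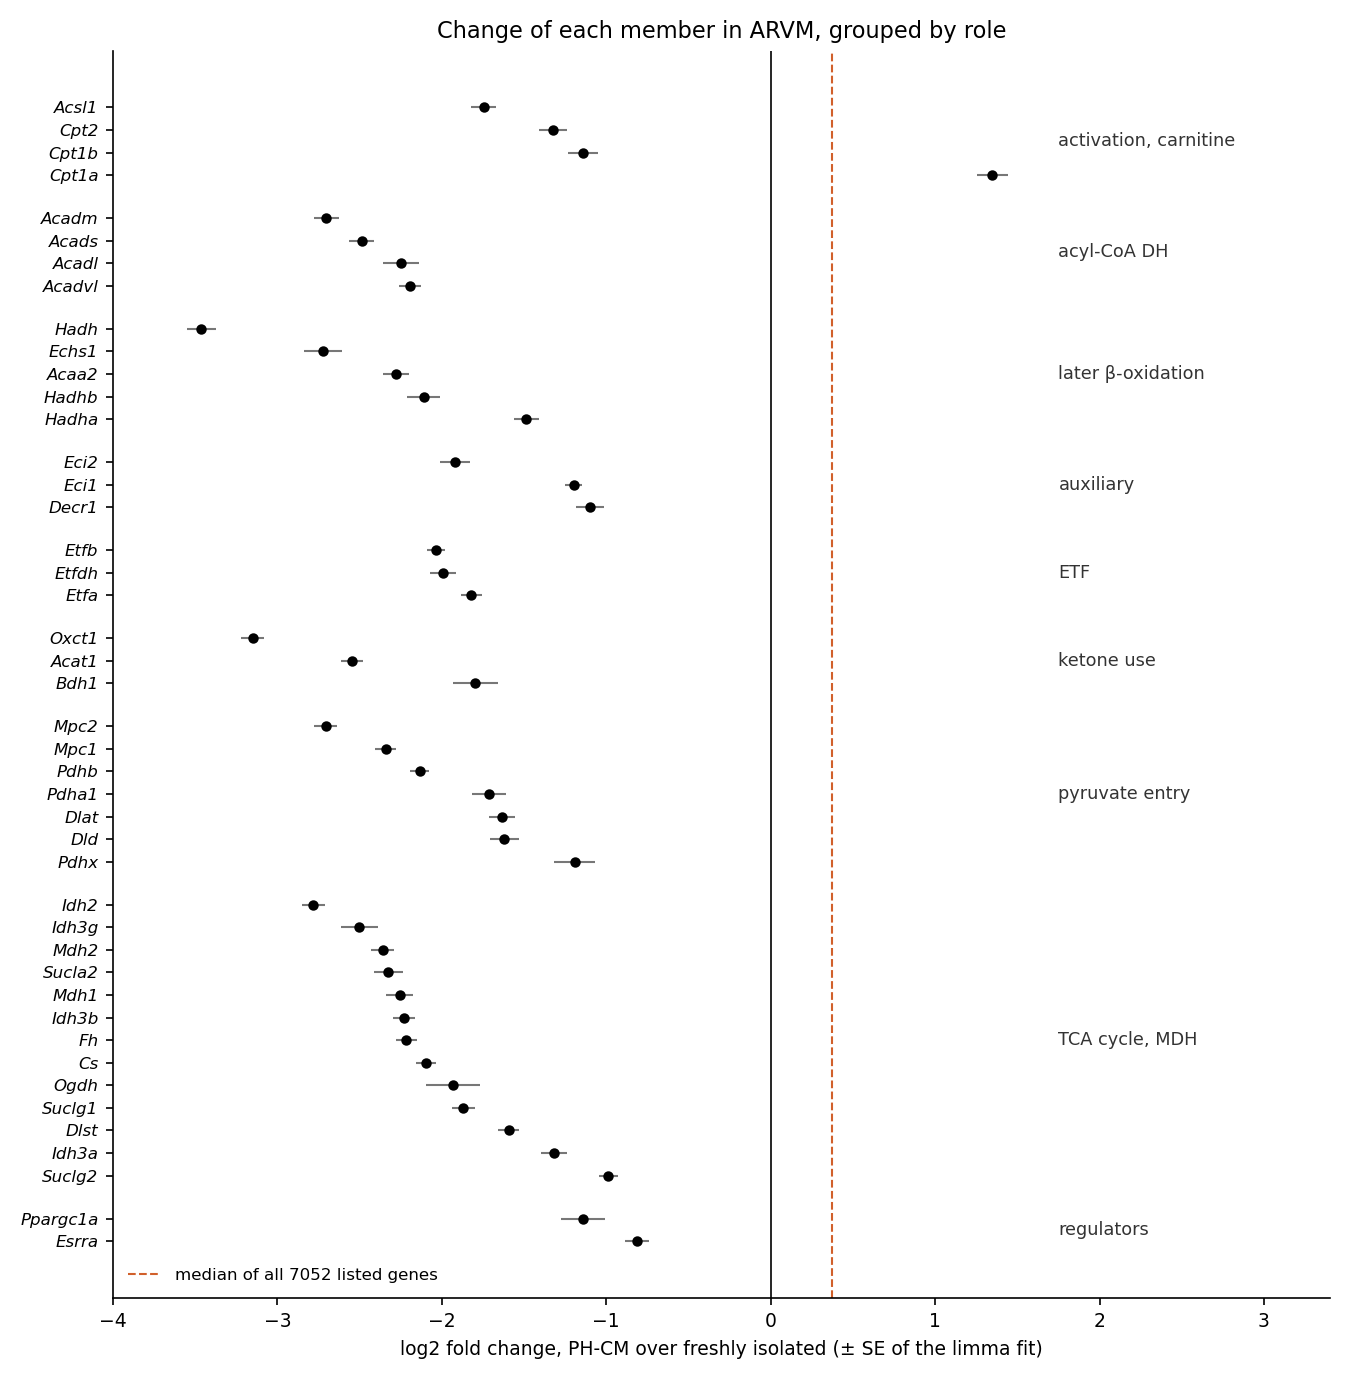
log2 fold change of PH-CM over freshly isolated ARVM for each of the 44 listed members, with the standard error of the limma fit as bars (n = 3 each), grouped by role. The points run from −3.46 for Hadh to −0.81 for Esrra, Cpt1a stands alone at +1.35, and the dashed line marks the median of all listed genes, +0.37.

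The spread within groups was small beside these changes, which the authors' selection for a difference favoured in every listed gene. The coefficient of variation of a member had a median of 5.44% in the freshly isolated libraries and 7.55% in the PH-CM libraries and reached at most 22.9% and 15.8%. The same median over all listed genes was 9.74% in the freshly isolated and 10.1% in the PH-CM libraries. Within the PH-CM group 1 library was the lowest for 29 of the 44 members and another the highest for 28. All 44 adjusted p-values from limma lay between 8.83e-08 and 0.00012. Since listed genes had been selected for a difference, these p-values, and the calls below, add no support. The 44 directions and calls held under every alternative of test, scaling and filter that was run and without any 1 library, except that Esrra and Suclg2 do not reach a log2 fold change of 1. Scaling the libraries to the same total over the listed genes moved the median of all listed genes by +0.42 and that of the members to −1.59. That scaling brought Esrra to −0.39, Suclg2 to −0.56, Decr1 to −0.68, Cpt1b and Ppargc1a to −0.72 and Pdhx and Eci1 to −0.77. Idh3a came to −0.89 and Cpt2 to −0.90, so these members too lay above −1. The split of all calls changed from 3802 higher and 3080 lower to 4010 higher and 1588 lower.

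The subunits of oxidative phosphorylation, which the TCA cycle feeds, were lower as well. Of 94 symbols searched, some of which are older and newer names of the same gene, 71 were listed, and all 71 were called lower (median log2 fold change −2.10). The largest changes were those of Cox8b, a subunit of cytochrome c oxidase found in muscle, at −6.76, Cycs, cytochrome c, at −2.79, and Atp5g1, a subunit of the ATP synthase ring, at −2.79. The members' sum as a ratio to the sum of these subunits was 0.224, 0.216 and 0.228 in freshly isolated ARVM and 0.235, 0.266 and 0.236 in PH-CM, 1.1-fold higher.

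The enzymes of glycolysis did not move in 1 direction. Of 20 symbols 19 were listed, 13 called lower and 6 higher (median log2 fold change −0.55). Pgam2 and Eno3, the muscle isoforms of phosphoglycerate mutase and enolase, changed by −6.22 and −4.95, and Aldoc, an aldolase found mainly in brain, by +4.38. With the libraries scaled to the same total, 8 of the 19 were called lower and 6 higher. The members' sum as a ratio to that of the glycolysis enzymes fell from 1.32, 1.28 and 1.25 to 0.571, 0.473 and 0.517. Both ratios of sums were taken after the values were seen.

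**Figure D4:**
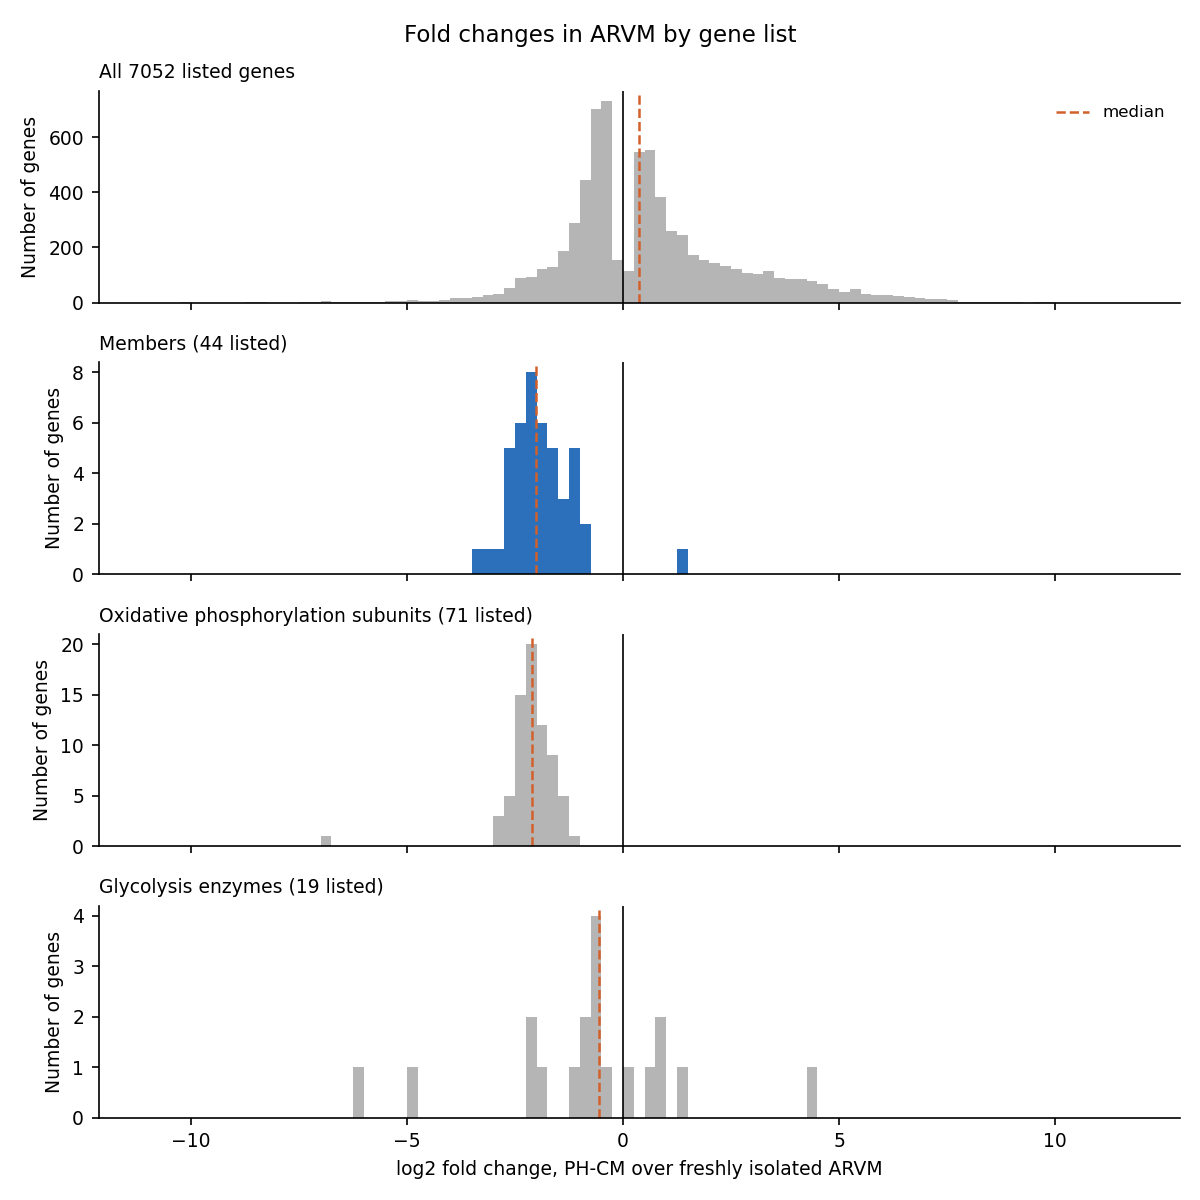
Number of genes (vertical axis) by log2 fold change of PH-CM over freshly isolated ARVM (horizontal axis, bins of 0.25) for all 7052 listed genes, the 44 members, 71 oxidative phosphorylation subunits and 19 glycolysis enzymes, with the median of each dashed. The medians stand at +0.37, −2.01, −2.10 and −0.55, and few of the listed genes lie near 0, since the table holds selected genes only.

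Markers of cell types changed as well, lower for some types and higher for others. Of 20 cardiomyocyte markers 18 were listed, 16 called lower and 2 higher, and their sum was between 1964550 and 1998880 normalized counts in freshly isolated ARVM and between 217141 and 264554 in PH-CM, with Mb, myoglobin, and Myh6, the adult myosin heavy chain, at log2 fold changes of −6.62 and −5.58. All 14 fibroblast markers were listed and called higher, and their sum was between 5745 and 7304 in freshly isolated ARVM and between 138731 and 199240 in PH-CM. Of 14 leukocyte and macrophage markers 12 were listed, all called higher, with a sum of 282 to 404 and then 8323 to 12536. Of 9 smooth muscle and pericyte markers 7 were called higher and 2 lower, with a sum of 5092 to 5941 and then 34977 to 53792. Of 11 endothelial markers 10 were called lower and 1 higher (sum 13539 to 16307, then 5608 to 6443). Of 7 erythroid markers 4 were listed, all lower, and Hbb, Hba1 and Hbb-b1 were at 0 in all PH-CM libraries. Those at 0 could be listed only as lower. The part of these cell types in the members' fall, and in the rise of Cpt1a, was not tested, and in bulk samples fewer cells of a type and less RNA per cell cannot be told apart. The members' sum as a ratio to the sum of the cardiomyocyte markers was 0.302, 0.286 and 0.292 in freshly isolated ARVM and 0.540, 0.574 and 0.591 in PH-CM, 1.94-fold higher, a ratio also taken after the values were seen. The members' sum thus fell less than that of these markers, which weighs highly counted genes such as Mb and Myh6 most. By gene, the median log2 fold change was −2.59 for the listed markers and −2.01 for the members.

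Other genes of the same pathways, from 6 lists, were read in the same fit. Of 27 further genes of mitochondrial fatty acid oxidation and its control 22 were listed, 18 called lower and 4 higher (median −1.13). Acsl6 and Acsl3, other long-chain acyl-CoA synthetases, moved apart at −3.10 and +1.93, and Acot13, a thioesterase, changed by −2.0. Of 20 peroxisomal genes 11 were listed, 10 called lower and 1 higher (median −0.80), led by Phyh, which acts on branched phytanic acid, at −3.12. With the libraries scaled to the same total 5 of these 11 were called lower and 1 higher.

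Of 32 symbols of other TCA cycle, anaplerosis and shuttle enzymes 23 were listed, 17 called lower and 6 higher (median −1.46). The succinate dehydrogenase genes in this list are also counted among the oxidative phosphorylation subunits. Me3, a mitochondrial malic enzyme, changed by −2.68, while Pck2, the mitochondrial phosphoenolpyruvate carboxykinase, rose by 2.66. A list of 12 genes held those that control pyruvate dehydrogenase or attach lipoate. It also held the lactate dehydrogenase genes Ldha and Ldhb, which are counted among the glycolysis enzymes too. Of the 12 genes 10 were listed, 8 called lower and 1 higher, with Lipt2 not called (median −1.06). The inhibitory kinases moved in both directions, Pdk1 by −2.09, Pdk4 by −2.02 and Pdk3 by +2.20.

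Of 19 genes of ketone body and branched-chain amino acid metabolism 17 were listed, 14 called lower and 3 higher (median −1.03). Bckdhb, of the branched-chain ketoacid dehydrogenase, changed by −2.68, while Bcat1, the cytosolic branched-chain aminotransferase, rose by 2.38. Of 34 other regulators of oxidative metabolism 21 were listed, 19 called lower and 2 higher (median −0.75). Perm1, a muscle regulator that acts with PGC-1, changed by −2.0, Prkaa2, a catalytic subunit of AMP-activated kinase, by −1.76, and Pparg, a relative of Ppara, by −2.33 at low counts. With the same total in each library 11 of these 21 regulators were called lower and 3 higher.

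In Cfib 97.5% of the 2115 listed genes were called by limma, 39.4% as lower in PH. All 6 listed members were called lower, and their median log2 fold change was −0.38 against +0.33 over all listed genes. The unit of the deposited values was not settled, since the study's methods describe normalized counts but the values are not multiples of a step per library, and their depth is unknown. BDH1 had 1.04, 0.887 and 1.17 in CO and 0.182, 0.231 and 0.396 in PH Cfib, a mean 3.83-fold lower and the largest relative difference of the 6 (log2 fold change −0.68, SE 0.10, limma adjusted p = 0.000689). As these values lie near the pseudocount of 1, the log2 fold change was −1.65 with a pseudocount of 0.1 and −0.10 with 10. The authors kept genes with an expression value above 1 in at least 1 group. BDH1 reached this only in CO (mean 1.03 against 0.270), so it could be listed only as lower in PH. ACSL1 had 36.0, 34.2 and 27.4 and then 20.1, 23.0 and 22.7 (−0.54, SE 0.11). HADHB had 56.9, 63.3 and 63.9 and then 43.9, 45.1 and 45.9 (−0.44, SE 0.06). In these 3 genes every PH library was below every CO library, as the groups do not overlap in any listed Cfib gene.

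The other 3 differed by smaller amounts. DLAT had 12.5, 13.2 and 14.6 in CO and 10.4, 10.6 and 10.5 in PH Cfib (−0.32, SE 0.08). CS had 77.4, 79.6 and 74.4 and then 61.6, 66.0 and 64.6 (−0.26, SE 0.06). HADHA had 77.4, 75.7 and 80.1 and then 66.6, 69.9 and 70.2 (−0.17, SE 0.05, limma adjusted p = 0.0190). Its call was lost without PH library 1 (limma adjusted p = 0.0713) and without PH library 2 (0.0553). The PH libraries vary less than the CO libraries (median coefficient of variation 5.01% against 13.7%), and with the PH libraries averaged into 1 sample only BDH1 and HADHB of the 6 were called. Rescaling by the median of ratios placed the 6 members between −0.82 and −0.46, with a median of −0.66, and moved the split of all calls from 1230 higher and 833 lower to 840 higher and 869 lower.

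**Figure D5:**
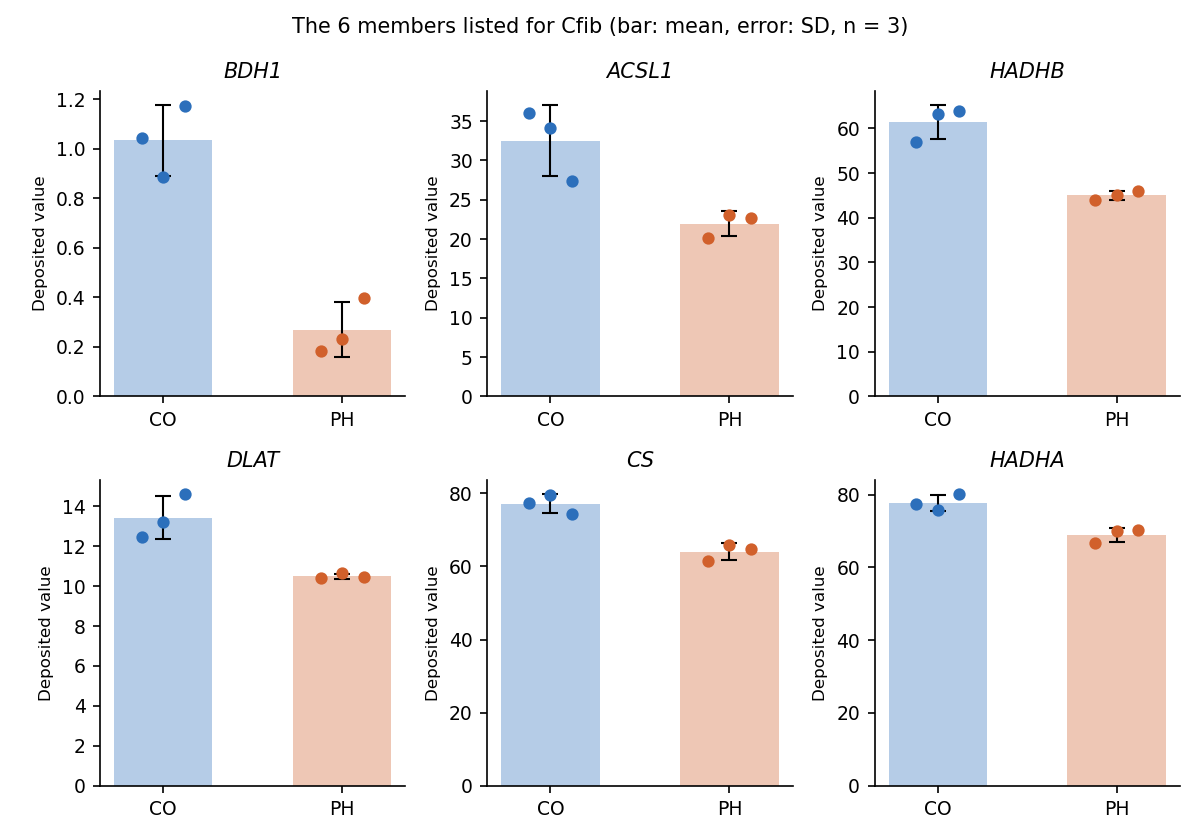
Deposited values (unit not settled) of the 6 members listed for Cfib in CO and PH libraries (vertical axes start at 0). Bars are means, error bars are SD, n = 3, and points are libraries. The PH points lie below the CO points in each panel, by most in BDH1 (mean 1.03 against 0.270) and by least in HADHA (77.7 against 68.9). BDH1 passed the authors' expression filter only through CO.

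In Cfib the 7 listed enzymes of glycolysis were all called lower (median −0.97), as was the 1 listed subunit of oxidative phosphorylation, SDHA, at −0.50 (−0.78 with the median of ratios). Over the 6 lists of related genes, which hold SDHA again, 26 were listed, 16 called lower and 10 higher. Among the long-chain acyl-CoA synthetases ACSL6, ACSL3 and ACSL5 changed by −2.49, −1.94 and −0.89, so that ACSL3 was lower in PH Cfib while its rat counterpart was higher in PH-CM ARVM. PDK3 and PDK1 changed by −1.21 and −0.79 (PDK1 by −0.49 with a pseudocount of 10), and PC, pyruvate carboxylase, by +1.1. PDK4 rose from a mean of 0.298 to 1.41, or 4.71-fold, which at such low values gave log2 fold changes of +0.89, +1.94 and +0.15 with pseudocounts of 1, 0.1 and 10. PDK4 passed the authors' expression filter only through PH, so it could be listed only as higher. Of the fibroblast markers 5 of 14 were listed, all called higher in PH, with POSTN, periostin, at +3.66. Of 9 smooth muscle markers 6 were listed (5 higher, 1 lower), of 14 leukocyte markers 6 (5 higher, 1 lower, with C1QA and C1QB at 0 in all CO libraries), of 11 endothelial markers 2 (1 each way), and of the cardiomyocyte and erythroid markers 0. Among them C1QA, C1QB and the smooth muscle marker RGS5 also passed the authors' filter only through PH and could be listed only as higher. The part of these cell types in the members' difference was not tested.

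By symbol 1178 genes were listed in both tables, of which 160 (13.6%) were lower in both comparisons, and the 6 members Acsl1, Bdh1, Cs, Dlat, Hadha and Hadhb were among them. The comparisons share no libraries but differ in species, cell type and unit. Their values side by side, ARVM first, were −1.75 and −0.54 for Acsl1 and −2.11 and −0.44 for Hadhb. For Dlat they were −1.63 and −0.32, for Cs −2.09 and −0.26, and for Hadha −1.49 and −0.17. For Bdh1 they were −1.80 and −0.68, the latter set by the pseudocount. Its means were 3.50-fold lower in ARVM and 3.83-fold lower in Cfib, where it was listed only through its CO values. Hadha had the smallest fall of the 6 in both tables, close to that of Dlat in ARVM.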

How the data were processed

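RNA sequencing of 12 libraries, 3 in each of 4 groups, was analysed, with groups taken from the sample labels. The authors aligned rat reads to RN6 and bovine reads to BosTau8 with HISAT2 and StringTie and normalized with DESeq2, and the deposited tables hold genes they had selected by a p-value under 0.05 and an expression value above 1. For ARVM the deposited signal is the number of reads over 1 size factor per library, and 100% of the values gave whole reads within 0.01 reads. For Cfib the unit of the deposited signal was not settled, since the methods describe normalized counts but the values are not multiples of a step per library, and no reads were recovered. How reads of pseudogene copies were counted is not given in the sources used here.

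The main test was limma 3.58.1 in R 4.3.3, run on log2(value + 1) with a mean-variance trend in eBayes. Its p-values were adjusted by Benjamini-Hochberg over all listed genes, and 0.05 was the threshold. Fold changes are on this scale and understate changes of low genes. The authors' own test was an unequal-variance test per gene, kept as an alternative. Sums and ratios were compared with 2-sided exact permutation tests (scipy 1.17.1), and edgeR 4.0.16 and DESeq2 1.42.0 were run on the recovered ARVM reads. The code was tested on simulated data. The alternatives changed the pseudocount to 0.1 or 10, set a minimum mean of 50 in ARVM or 5 in Cfib, and varied the scaling and the test. They also asked for a log2 fold change of at least 1, left out each library in turn and, for Cfib, added a replicate block or averaged the PH libraries.

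Values per library are given for Cpt1a, Cpt1b and the regulators, for members in both tables, for the lowest and highest fold change of each role, for members against the median direction and for isoform partners, and up to 3 called genes are named per other list, of which some are not reported here. Members and lists were chosen with earlier results of these data known. ARVM libraries held 12122463 to 18842171 reads on listed genes, and replicates differed by more than sampling noise (chi-square per gene 11.5 to 38.7). For Cfib the depth is unknown.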

Additional observations from a re-analysis of the deposited data

How the results depend on the processing

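The direction of all 44 members in ARVM held under every alternative run, and so did their calls, except that a minimum log2 fold change of 1 left 41 of 43 called lower, without Esrra and Suclg2. Their median log2 fold change was −1.59 with the libraries scaled to the same total, against −2.01. A minimum log2 fold change of 1 left 3405 of 6882 calls over all listed ARVM genes and 64 of 103 in the other pathway lists. In Cfib it left 720 of 2063 calls over all listed genes, 0 of 6 members, 6 of 26 genes of the other pathway lists and 3 of 8 of the comparison lists. With the PH libraries averaged into 1 sample, 1038 genes, 2 members and 13 genes of the other pathway lists were called; the lone sample is assumed to vary like the CO libraries. The median over the Cfib members was −0.21 with a pseudocount of 10, −0.32 with a minimum mean of 5 and −0.66 with the median of ratios, against −0.38. Leaving out each library in turn gave 6452 to 6695 called ARVM genes, 1910 to 2052 called Cfib genes and 5 to 6 called Cfib members.

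CO and PH Cfib share the replicate numbers 1 to 3, but nothing says that these pair calves. Same-numbered libraries deviated together with correlations of 0.258, 0.0312 and 0.259, and the other combinations with −0.245 to 0.102. These values do not settle whether the numbers mark pairs, and the main fit used no block. With a replicate block 1983 genes were called, and HADHA was no longer called (limma adjusted p = 0.0502). Not every CO library correlated best with its own number. No paired analysis was possible for ARVM because the groups share no replicate number. Depth limits the low values most: BDH1 in Cfib lies near the pseudocount, and exact permutation tests of 3 against 3 cannot go below 0.1.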
